A study of Homo sapiens with 24 samples.

Results

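The poly(A)-binding proteins and the proteins that dock on them were followed through their own mRNAs in U2OS cells, a human osteosarcoma line. The set held 8 genes, taken by symbol from a deposited table of 22925 gene symbols: PABPC1, PABPC4, PABPN1, PAIP1, PAIP2, PAIP2B, GSPT1 and GSPT2. All 8 were found, with 1 to 3 transcript rows each, and the rows of a gene were summed. They held 0.0565% to 0.114% of the FPKM of a library (fragments scaled by transcript length and by the mapped fragments of the library, hence a level per length).

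Cytoplasmic poly(A)-binding protein coats the poly(A) tail of mRNA, helps to join it to the cap-binding complex and carries a C-terminal MLLE domain that binds short PAM2 peptides. PAIP1, PAIP2, PAIP2B and the termination factors encoded by GSPT1 and GSPT2 have such peptides, and so does PAN3, which brings the PAN2 deadenylase to the tail. PAIP1 favours translation, whereas PAIP2 and PAIP2B displace the protein from the tail and repress translation. PABPN1 is the nuclear member, which stimulates poly(A) polymerase and takes part in setting the length of new tails.

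The cells had received, by lipid transfection, a control siRNA, an siRNA named for the long PAN3 isoform, one named for the short isoform, or this pair together. Cytoplasmic RNA was taken 0, 0.5, 1, 2, 4 and 6 h into actinomycin D, which blocks transcription. Each of the 4 series thus held 6 libraries, 24 in all, and no time point was repeated. The design asks how loss of a PAN3 isoform alters mRNA turnover. Mean PAN3 was 0.988 ± 0.847 FPKM with the control siRNA, 0.898 ± 0.556 with the long-isoform, 2.51 ± 0.901 with the short-isoform and 1.45 ± 0.759 with the combined siRNAs (SD, n = 6 for each). It was therefore not lower in the short-isoform or combined libraries, and the table holds no row that separates the isoforms. PAN2, looked at beside it, ran from 8.50 to 11.9 FPKM in the control and from 0 to 9.10 in the long-isoform series, and was listed at 0 in all but 1 library of the short-isoform and of the combined series, those at 6.12 and 5.83 FPKM. Whether the PAN2 zeros are failed estimates, as zeros between high values are read below, was not tested. The series are called long-labelled, short-labelled and both-labelled, and every direction below rests on those labels.

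FPKM summed to 324072 to 384287 per library, and 8996 to 9720 genes stood at 1 FPKM or more. Read totals are unknown, so no counting error can be given. Of the osteosarcoma and mesenchymal markers, VIM had a median of 641 FPKM and CD44 of 68.3, while COL1A2, THY1 and CDH2 were at or near 0 and SPARC and RUNX2 stayed at medians of 0.440 and 0.379. The hepatic marker ALB was listed at 0 in 23 of 24 libraries and the T-cell marker CD3E in 19. Of the nuclear RNAs looked at, NEAT1 ran from 48.5 to 287 FPKM (median 129) and MALAT1 from 0 to 79.4 (median 8.55). The cytoplasmic libraries were thus not free of them. Single zeros also stood between high values of abundant genes, VIM included, and are read as failed estimates. Among the 8 genes PABPN1 and PAIP1 carried 2 such zeros each. The genes without one and with a mean of at least 1 FPKM entered the limma fit with 7860 genes in all, and these were PABPC1, PABPC4, PAIP2 and GSPT1. The other 4 were fitted in a wider set of 13966 genes, called the all-member fit, with failed zeros set to missing. The limma p-values measure only how time points scatter within series. That scatter was pooled over the 4 series, so a library of another series can move the p-value of a pair. The labels do not say whether the libraries of a series came from separate transfections. In bulk RNA, fewer cells with a transcript and less of it per cell cannot be told apart.

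The genes differed widely in level. In the control series PABPC1 averaged 175 ± 27.4 FPKM, PAIP2 65.0 ± 5.75 and PABPC4 57.3 ± 9.97 (SD, n = 6 each). PABPN1 followed at 11.2 ± 6.05 with 1 library listed at 0, GSPT1 at 10.6 ± 2.80 and PAIP1 at 7.63 ± 1.46. GSPT2 averaged 0.535 ± 0.0630 FPKM and PAIP2B 0.338 ± 0.0658. In this order the ranges of PAIP2 and PABPC4 overlapped, as did those of PABPN1, GSPT1 and PAIP1. The ranges of PABPC1 and PAIP2, and those of GSPT2 and PAIP2B, did not.

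**Figure D1:**
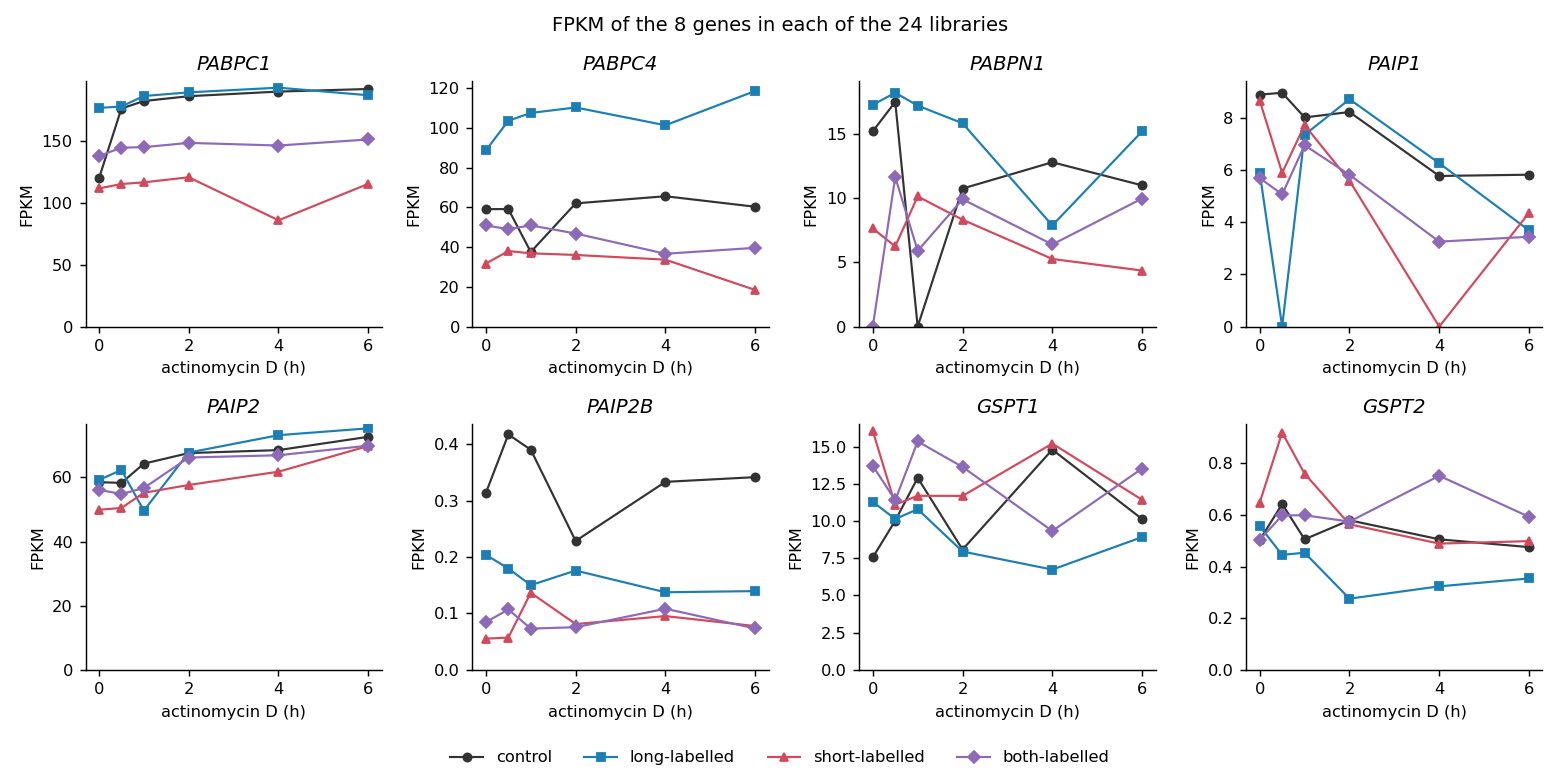
FPKM (y axis, linear from 0) of each of the 8 genes against hours of actinomycin D (x axis), with 1 point per library and lines joining the 6 libraries of a series. PABPC1 and PABPC4 lie lowest in the short-labelled series, PABPC4 lies highest in the long-labelled series, and the 6 control values of PAIP2B lie above all others.

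Of the 4 genes in the limma fit, 2 were lower in the short-labelled than in the control series (PABPC1 and PABPC4) and none was higher, where 63.5% of the 7860 genes tested were called in that comparison at an adjusted p under 0.05. PABPC4 alone was called, as higher, in the long-labelled against the control series, where 51.2% of genes were called. None of the 4 was called in the both-labelled against the control series by limma (62.1% of genes called), with 1 of 4, GSPT1, at an unadjusted p under 0.05. Against the long-labelled series, PABPC1 and PABPC4 were lower and GSPT1 was higher in the short-labelled series (3 of 4, against 64% of genes) and in the both-labelled series (3 of 4, against 57.3%). PABPC1 and PABPC4 were higher in the both-labelled than in the short-labelled series, 2 of 4 against 17.5% of genes. With shares this high among all genes, and with pairs that share libraries, these counts say little about the set as such.

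Among the other 4 genes, PABPN1 and PAIP2B were lower in the short-labelled than in the control series (45.4% of the 13966 genes of the all-member fit were called). PAIP1 and PAIP2B were lower in the both-labelled series (44% called), and PAIP2B was lower in the long-labelled series (34.3% called). Against the long-labelled series PABPN1 and PAIP2B were lower and GSPT2 was higher, in the short-labelled (44.6% called) and in the both-labelled series (38.8% called) alike. None was called between the both-labelled and the short-labelled series, where limma called 8.11% of genes and 1 of 4, PAIP1, had an unadjusted p under 0.05.

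**Figure D2:**
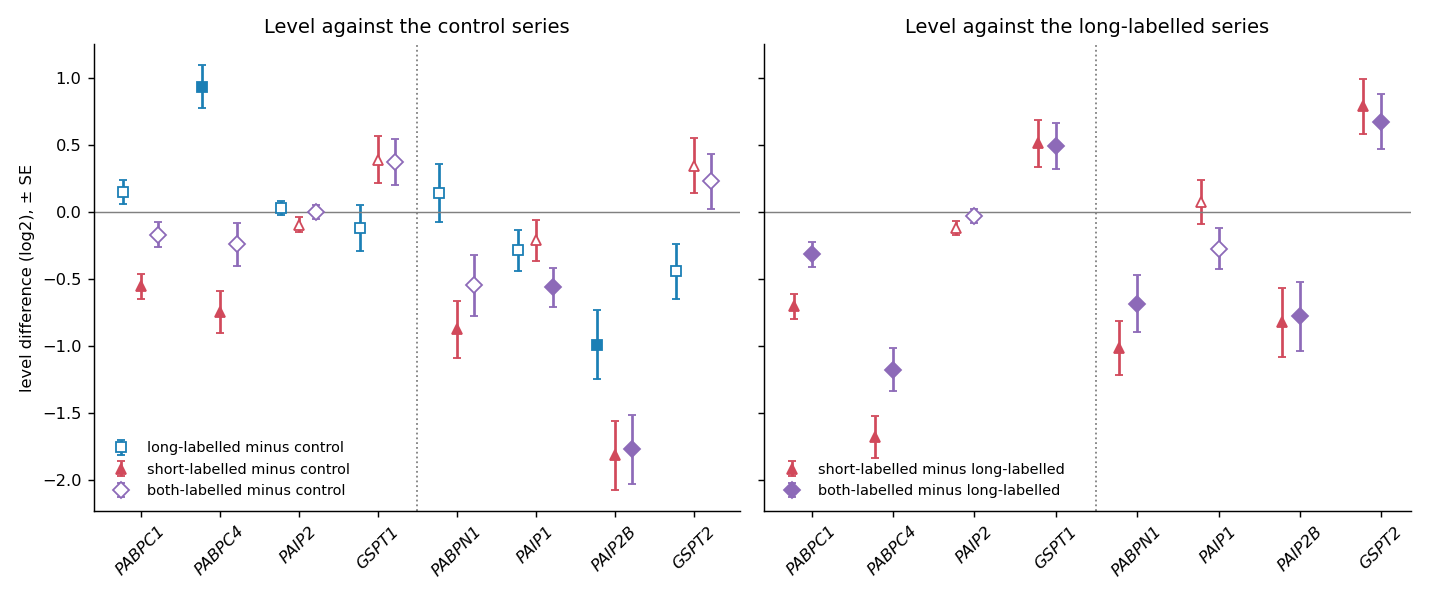
Level difference in log2 units (y axis) with its standard error for each gene, against the control series on the left and against the long-labelled series on the right. Filled symbols have an adjusted p under 0.05, and the 4 genes right of the dotted line come from the all-member fit. PABPC4 in the long-labelled series is the one filled symbol above 0 on the left.

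PABPC1, the main cytoplasmic poly(A)-binding protein, ran from 120 to 192 FPKM in the control series with a median of 184. The long-labelled series ran from 177 to 193 (median 187), the both-labelled from 138 to 151 (median 146) and the short-labelled from 86.0 to 121 (median 115). The short-labelled libraries were below the control at 6 of 6 times, and the ranges touched only because the control library of 0 h (119.9 FPKM) stood below the short-labelled library of 2 h (120.8 FPKM). The short-labelled minus control difference of PABPC1 was -0.56 ± 0.09 log2 units (SE), with a ratio of means of 0.636 (limma adjusted p = 4.4e-05). In that comparison 41.9% of the genes tested had a difference of larger size. The PABPC1 value was -0.66 without that control library (adjusted p = 3.4e-07) and -0.47 with 4 h of the short-labelled series, its lowest library, left out (adjusted p = 5.4e-05). The both-labelled series stood between these series. It was higher than the short-labelled by 0.39 ± 0.09 log2 units (adjusted p = 0.0073), lower than the long-labelled at 6 of 6 times with no overlap (-0.32 ± 0.09, adjusted p = 0.0069), and at -0.17 ± 0.09 from the control (adjusted p = 0.12). That last value rested on 1 library. Without the control library of 0 h PABPC1 differed by -0.27 between the both-labelled and control series (adjusted p = 0.0025), while the value of -0.17 had an adjusted p of 0.047 when 4 h of the short-labelled series was left out. The long-labelled and control series differed by 0.15 ± 0.09 (adjusted p = 0.20).

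PABPC3, an intronless copy of PABPC1 known from testis, bears on these values because the copies are near-identical and reads may have been split between them. PABPC3 ranged over 84.9 to 94.4 FPKM in the control series, 56.2 to 91.9 in the long-labelled, 53.7 to 57.2 in the short-labelled and 67.8 to 73.6 in the both-labelled series. The ratio of PABPC3 to PABPC1 had medians of 0.498, 0.475, 0.482 and 0.477 in the control, long-, short- and both-labelled series. It reached 0.738 in the control library of 0 h and 0.636 in the short-labelled library of 4 h, where PABPC1 was low and PABPC3 stood at 88.5 and 54.7 FPKM, within the range of its series. At 1 h of the long-labelled series PABPC3 was the low one, at 56.2 FPKM, and the ratio was 0.302. With both genes summed as PABPC1, an alternative chosen after seeing the data, the short-labelled minus control difference was -0.58 ± 0.07 log2 units (adjusted p = 1.2e-06) and the both-labelled minus control difference was -0.22 ± 0.07 (adjusted p = 0.013).

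**Figure D3:**
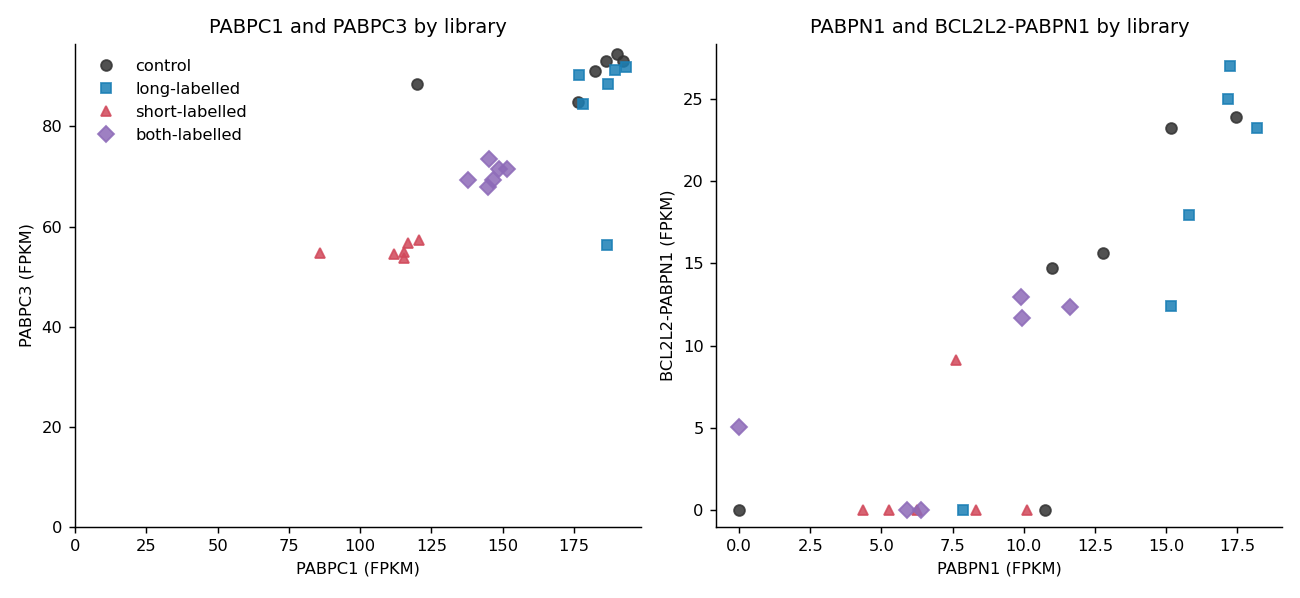
Each point is 1 library. Left, PABPC3 against PABPC1 in FPKM, where most libraries lie near a ratio of 0.48 and 3 libraries stand off that line. Right, the readthrough gene BCL2L2-PABPN1 against PABPN1 in FPKM, with 10 libraries listed at 0 for the readthrough gene.

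PABPC4, a second cytoplasmic poly(A)-binding protein first described as inducible in T cells, showed the widest separation of the genes in the limma fit. Its range was 88.7 to 119 FPKM in the long-labelled series (median 106), from 37.6 to 65.6 in the control (median 59.7), from 36.7 to 50.9 in the both-labelled (median 47.9) and from 18.4 to 38.0 in the short-labelled series (median 34.9). Every long-labelled library was above every library of the other series. PABPC4 was higher by 0.93 ± 0.16 log2 units in the long-labelled than in the control series, a ratio of means of 1.83 (limma adjusted p = 8.6e-05). In the short-labelled series it was lower than in the control at 6 of 6 times (-0.75 ± 0.16, adjusted p = 0.00051). Between the extremes, short-labelled and long-labelled, the means were 3.23-fold apart (-1.68 ± 0.16, adjusted p = 4.8e-08). In that comparison 388 of 7860 genes had a difference of larger size, 4.94%. Against the control, the share with a larger size than PABPC4 was 11.5% for the long-labelled and 30.1% for the short-labelled series. The both-labelled series lay below the long-labelled (-1.18 ± 0.16, adjusted p = 5.6e-06) and differed from the control by -0.24 ± 0.16 (adjusted p = 0.19). Without the control library of 1 h, at 37.6 FPKM the lowest of its series, PABPC4 differed between those last groups by -0.39 (adjusted p = 0.024). The both-labelled minus short-labelled difference of 0.50 ± 0.16 (adjusted p = 0.037) was lost in 13 of 30 fits that left out a time or a library, with values from 0.35 to 0.59.

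The PABPC4 level was the sum of 3 transcript rows. NM_001135653 had medians of 59.0 FPKM in the long-labelled, 34.3 in the control, 29.1 in the both-labelled and 20.6 in the short-labelled series. NM_003819 had medians of 35.6, 25.1, 19.1 and 15.6 FPKM in the same order. The lowest long-labelled value of NM_001135653, 41.2 FPKM, was above the highest control value of 37.0, and for NM_003819 the corresponding values were 32.7 and 30.8. NM_001135654 was listed above 0 only in the long-labelled series, at 11.7 to 15.8 FPKM in 5 of 6 libraries and at 0 in that of 2 h, and at 0 in all 18 other libraries. Both main transcripts therefore lay higher in the long-labelled series without it. The sources used here do not say how reads were divided among transcripts.

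**Figure D4:**
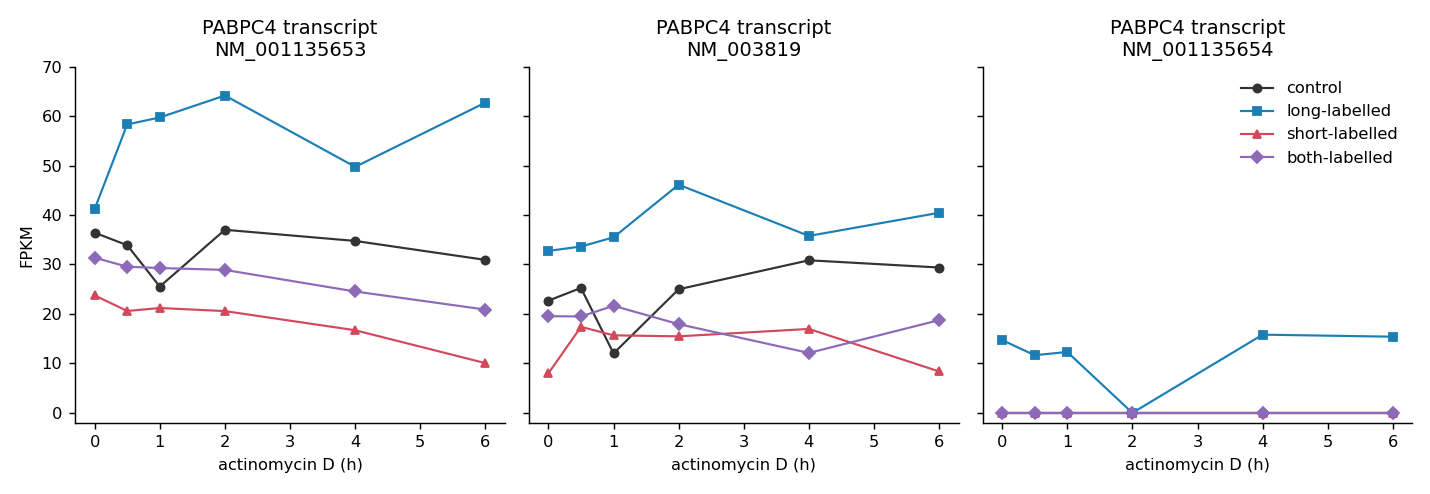
FPKM (y axis) of the 3 PABPC4 transcript rows against hours of actinomycin D (x axis), with 1 point per library. The long-labelled points lie above the other series for the first and second transcripts, and NM_001135654 is above 0 in 5 long-labelled libraries alone.

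The balance of the cytoplasmic pair moved with these levels. The ratio of PABPC4 to PABPC1, both per length, averaged 0.567 ± 0.0472 in the long-labelled series, 0.338 ± 0.0919 in the control, 0.314 ± 0.0486 in the both-labelled and 0.297 ± 0.0767 in the short-labelled series (SD, n = 6 each). The lowest long-labelled ratio, 0.501, was above the highest ratio elsewhere, 0.493. The summed level of PABPC1 and PABPC4 ran from 266 to 306 FPKM in the long-labelled, 179 to 256 in the control, 183 to 196 in the both-labelled and 120 to 157 in the short-labelled series. These ratios carry no test of their own.

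PABPN1, the nuclear poly(A)-binding protein, had medians of 16.5 FPKM in the long-labelled, 11.9 in the control, 8.14 in the both-labelled and 6.93 in the short-labelled series. It was listed at 0 in the control library of 1 h, between 17.5 and 10.7 FPKM, and in the both-labelled library of 0 h, before 11.6 FPKM. With those zeros as missing, PABPN1 was lower in the short-labelled than in the control series (-0.88 ± 0.21 log2 units, limma adjusted p = 0.0032) and lower than in the long-labelled series (-1.02 ± 0.20, adjusted p = 0.0006). The both-labelled series was below the long-labelled (-0.69 ± 0.21, adjusted p = 0.018), which was lost without the both-labelled library of 1 h (-0.46, adjusted p = 0.072). Without the long-labelled library of 4 h, the lowest of its series, the PABPN1 differences from that series were -1.14 (short-labelled, adjusted p = 0.0003) and -0.82 (both-labelled, adjusted p = 0.0076). All 3 PABPN1 calls depend on how the zeros are read. Kept as zeros, the short-labelled minus control difference turned to 0.86 (adjusted p = 0.73), and those from the long-labelled series were -1.02 (short-labelled, adjusted p = 0.68) and -2.35 (both-labelled, adjusted p = 0.31).

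PABPN1 overlaps the readthrough gene BCL2L2-PABPN1, whose transcript carries PABPN1 exons, so the tables cannot tell their shared reads apart. BCL2L2-PABPN1 had medians of 20.6 FPKM in the long-labelled, 15.2 in the control, 8.37 in the both-labelled and 0 in the short-labelled series. It was listed at 0 in 5 of 6 short-labelled libraries, in 2 control, 2 both-labelled and 1 long-labelled library. In the control library of 1 h both genes were listed at 0. The order of the series was the same for the readthrough gene and for PABPN1, and the part of shared reads in the PABPN1 difference was not tested.

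Of the PABPC-binding cofactors, PAIP1, the coactivator that also contacts initiation factors, stood at a median of 8.13 FPKM in the control series, 6.09 in the long-labelled, 5.75 in the short-labelled and 5.39 in the both-labelled series. Zeros stood at 0.5 h of the long-labelled and at 4 h of the short-labelled series. The both-labelled libraries were below the control at 6 of 6 times, although the ranges of 3.26 to 6.96 and 5.78 to 8.98 FPKM overlapped. PAIP1 was lower there (-0.56 ± 0.14 log2 units, limma adjusted p = 0.0047). With its zeros kept, the PAIP1 value was -0.56 with an adjusted p of 0.81. The long-labelled and short-labelled series differed from the control by -0.29 ± 0.15 (adjusted p = 0.17) and -0.21 ± 0.15 (adjusted p = 0.29). The sum over transcripts changed make-up between series. The PAIP1 row NM_006451 was listed at 0 in 1 of 6 control and 4 of 6 both-labelled libraries, with medians of 2.94 and 0 FPKM, while NM_182789 was above 0 in all 12, with medians of 5.34 and 3.92 FPKM. NM_182789 was listed at 0 in 3 of 6 long-labelled libraries. Whether the zeros of single rows are failed estimates was not tested.

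PAIP2, the abundant repressor, varied least between series. It ran from 58.3 to 72.7 FPKM in the control series, 49.6 to 75.3 in the long-labelled, 54.8 to 69.9 in the both-labelled and 49.9 to 69.8 in the short-labelled series, with wide overlap. Its 6 level differences lay between -0.12 and 0.09 log2 units with SE of 0.05, and none had an adjusted p under 0.05. The PAIP2 difference nearest the threshold was short-labelled minus long-labelled, -0.12 ± 0.05 (adjusted p = 0.053). That value was -0.19 without the long-labelled library of 1 h, the lowest of its series at 49.6 FPKM (adjusted p = 0.00037), and it also passed without the library of 1 h of the control or short-labelled series or that of 6 h of the short-labelled series. The ratio of PAIP2 to the sum of PABPC1 and PABPC4 averaged 0.407 ± 0.0876 in the short-labelled series, 0.323 ± 0.0383 in the both-labelled, 0.282 ± 0.0270 in the control and 0.222 ± 0.0288 among long-labelled libraries (SD, n = 6, no test).

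PAIP2B, the paralogue of PAIP2, was listed at low values that separated the control from the rest. It ran from 0.229 to 0.417 FPKM in the control series (median 0.338), from 0.138 to 0.204 in the long-labelled (median 0.163), from 0.0731 to 0.108 in the both-labelled (median 0.0800) and from 0.0552 to 0.137 in the short-labelled series (median 0.0793). No control library overlapped another series, and no long-labelled library overlapped the short-labelled or both-labelled libraries. In the all-member fit PAIP2B was lower than in the control in the short-labelled series (-1.82 ± 0.26 log2 units, limma adjusted p = 1.4e-05) and in the both-labelled series (-1.77 ± 0.26, adjusted p = 1.9e-05). The mean was 4.03-fold and 3.88-fold higher in the control. The long-labelled series was lower than the control too (-0.99 ± 0.26, adjusted p = 0.0058), with a mean 2.05-fold below. An exact two-sided sign-flip test over the 6 matched times gave p = 0.031 for each of these 3 pairs, adjusted to 0.0375 over the 6 pairs, and 0.031 is the smallest value that 6 pairs allow. The differences of the short-labelled and both-labelled from the long-labelled series were -0.83 and -0.78 (adjusted p = 0.014 and 0.023), and each was lost in some fits: the first without all libraries of 0 h (-0.67, adjusted p = 0.072) or of 0.5 h (-0.70, adjusted p = 0.065), the second without the long-labelled library of 0 h (-0.68, adjusted p = 0.060) or 2 h, or the both-labelled library of 1 h. The second was also lost without all libraries of 0 h, of 2 h or of 6 h, and with 0 to 4 h only. Both were lost after quantile normalisation and with only the 12 libraries compared. Values this low may rest on few reads, which cannot be judged without read totals.

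The region before the PAIP2B start is shown because PAIP2B set the control series apart and its sequence carries a recurring motif. RefSeq promoter windows (GRCh38.p14, not the hg19 build of the files) were matched for 6 of the 8 genes, in 10 windows. The 250 bases before the PAIP2B start lie on the minus strand at chr2:71227104-71227353, with CCAAT in capitals, a motif bound by the NF-Y factor.
PAIP2B upstream: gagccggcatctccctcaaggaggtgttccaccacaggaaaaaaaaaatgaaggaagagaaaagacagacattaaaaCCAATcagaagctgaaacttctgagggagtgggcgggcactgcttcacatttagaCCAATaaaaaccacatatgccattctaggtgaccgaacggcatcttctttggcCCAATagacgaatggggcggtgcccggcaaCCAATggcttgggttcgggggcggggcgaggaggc
CCAAT, searched on both strands and chosen after the sequence had been seen, occurred 4 times there, all in the sense direction. Of 35116 windows of 250 bases before a start, 32% held it at least once and 0.874% held 4 or more. PABPN1 had 2 matches in 1 of its 2 windows, and the windows of PAIP1, PAIP2, GSPT1 and GSPT2 had 0. A match is a description of letters, and no binding was measured.

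The termination factors GSPT1 and GSPT2 (eRF3a and eRF3b) release the finished peptide together with eRF1. GSPT1 ran from 7.57 to 14.8 FPKM in the control series (median 10.1), 6.74 to 11.3 in the long-labelled (median 9.54), 11.1 to 16.1 in the short-labelled (median 11.7) and 9.34 to 15.4 in the both-labelled series (median 13.6). All ranges overlapped. GSPT1 was higher than in the long-labelled series at 6 of 6 times in the short-labelled (0.51 ± 0.17 log2 units, limma adjusted p = 0.016) and in the both-labelled series (0.49 ± 0.17, adjusted p = 0.022). Without the long-labelled library of 4 h these values were 0.41 (adjusted p = 0.053) and 0.39 (adjusted p = 0.072), and the second was 0.42 without the both-labelled library of 2 h (adjusted p = 0.062). In all, the second was lost in 5 of 30 fits that left out a time or a library, and with 0 to 4 h only (adjusted p = 0.071). Against the control the GSPT1 differences were 0.39 ± 0.17 (adjusted p = 0.059) and 0.37 ± 0.17 (adjusted p = 0.073), and they were 0.54 and 0.52 without the control library of 4 h (adjusted p = 0.0063 and 0.0082). The first also passed without the library of 4 h of the long-labelled or both-labelled series or that of 1 h of the short-labelled series, and the second when 4 h of the both-labelled series was left out. The main row NM_002094 was listed at 0 in the control library of 0 h, where NM_001130006 was listed at 7.57 FPKM.

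GSPT2, an intronless copy of GSPT1 on the X chromosome, ran from 0.475 to 0.642 FPKM in the control, 0.276 to 0.557 in the long-labelled, 0.489 to 0.919 in the short-labelled and 0.504 to 0.752 in the both-labelled series. Like GSPT1 it was lowest on average in the long-labelled series. In the all-member fit GSPT2 was higher than there by 0.79 ± 0.20 log2 units in the short-labelled (limma adjusted p = 0.0042) and by 0.67 ± 0.20 in the both-labelled series (adjusted p = 0.014). The second call was lost without all libraries of 2 h or of 4 h, and with only the 12 libraries compared. The exact sign-flip test over 6 times gave adjusted p = 0.19 for both pairs of GSPT2. Reads may have been shared between the copy and its parent. No read data were at hand to tell how often a read fitted both genes.

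Over the course of actinomycin D, slopes are given in log2 units per h relative to the median gene of each library, so a gene with a positive slope gained on the median gene as transcription stayed blocked. In the control series 3 of the 4 genes in the limma fit had a called slope, all positive, where 46.9% of genes were called, 2368 of 3683 with a positive slope. The median slope of all genes was 0.04, and 37.9%, 46.5% and 50.2% of genes had a slope of larger size than PABPC1, PAIP2 and PABPC4. PAIP2 went from 58.5 FPKM at 0 h to 72.7 at 6 h, with a slope of 0.11 ± 0.02 (adjusted p = 0.00037). The PAIP2 slopes of the other series were as large, 0.12 ± 0.02 in the long-labelled, 0.12 ± 0.02 in the short-labelled and 0.10 ± 0.02 in the both-labelled series. All 4 slopes of PAIP2 were positive. After quantile normalisation its control slope was 0.04 (adjusted p = 0.13).

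PABPC1 had a control slope of 0.12 ± 0.03 (limma adjusted p = 0.0029), which was 0.07 without the control library of 0 h (adjusted p = 0.029), 0.07 with values not centred (adjusted p = 0.067) and 0.02 after quantile normalisation (adjusted p = 0.50). The library of 0 h held 119.9 FPKM and the later ones 176 to 192. The PABPC4 control slope of 0.10 ± 0.04 (adjusted p = 0.049) was lost in 24 of 30 fits without a time or a library. GSPT1 had 0.11 ± 0.06 (adjusted p = 0.10). In the all-member fit the control slopes of PABPN1, PAIP1, PAIP2B and GSPT2 were 0.01 ± 0.07, -0.02 ± 0.06, 0.08 ± 0.09 and 0.06 ± 0.06, with adjusted p of 0.56 or more. PAIP1 was lower in FPKM at 6 h than at 0 h in each series, at 5.83 against 8.90 in the control, 3.69 against 5.91 in the long-labelled, 4.36 against 8.68 in the short-labelled and 3.45 against 5.70 in the both-labelled series. These values are not centred, and the median log2 value of a library fell too in each series, from 3.73 at 0 h to 3.40 at 6 h in the control. Relative to the median gene, the PAIP1 slopes of -0.02 to -0.08 did not pass the test.

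No slope difference between series was called by limma for the 4 genes of its fit, with 2 of 4 at an unadjusted p under 0.05 for short-labelled against control (PABPC1 and PABPC4) and 1 or 0 in each other pair. The shares of all genes called were 1.83% for long-labelled against control, 8.85% for short-labelled against control, 7.05% for both-labelled against control, 6.3% for short-labelled against long-labelled, 3.19% for both-labelled against long-labelled and 0.115% for both-labelled against short-labelled. The member nearest to a call was PABPC4, with a difference of -0.18 ± 0.06 between the short-labelled and control series (adjusted p = 0.062). It rested on the short-labelled library of 6 h, at 18.4 FPKM the lowest of its series, without which the PABPC4 difference was -0.06 (adjusted p = 0.76). It passed the threshold without the control library of 0 h (-0.22, adjusted p = 0.038) or of 1 h (-0.15, adjusted p = 0.041), without the short-labelled library of 0 h (-0.22, adjusted p = 0.043) or of 4 h (-0.22, adjusted p = 0.033), and with NM_001135653 alone in place of the sum (-0.19, adjusted p = 0.024). Between the short-labelled and long-labelled series the PABPC4 slope difference was -0.17 ± 0.06 (adjusted p = 0.098). Dropping the 1 h control library, which belongs to neither of these series, left -0.17 (adjusted p = 0.022). With NM_001135653 alone the PABPC4 difference between these series was -0.22 (adjusted p = 0.013). The low short-labelled library of 6 h, at 18.4 FPKM, enters this difference too. Summed PABPC4 of that series was not lower at 4 h (33.7 FPKM) than at 0 h (31.7 FPKM). Its negative slope of -0.09 thus rests on the library of 6 h, and so does that part of the difference of -0.17. NM_001135653 alone was already lower at 4 h, at 16.7 against 23.8 FPKM at 0 h. The difference refitted without the library of 6 h is not given here. PABPC1 had a slope difference of -0.10 ± 0.04 between the short-labelled and control series (adjusted p = 0.14). It was -0.20 without the short-labelled library of 6 h (adjusted p = 0.023). That fit ended the short-labelled series at its lowest library, that of 4 h at 86.0 FPKM. The control library of 0 h, also in this PABPC1 difference, was the lowest of its series at 119.9 FPKM. The PAIP2 slope differences lay between -0.02 and 0.02 with SE of 0.03.

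**Figure D5:**
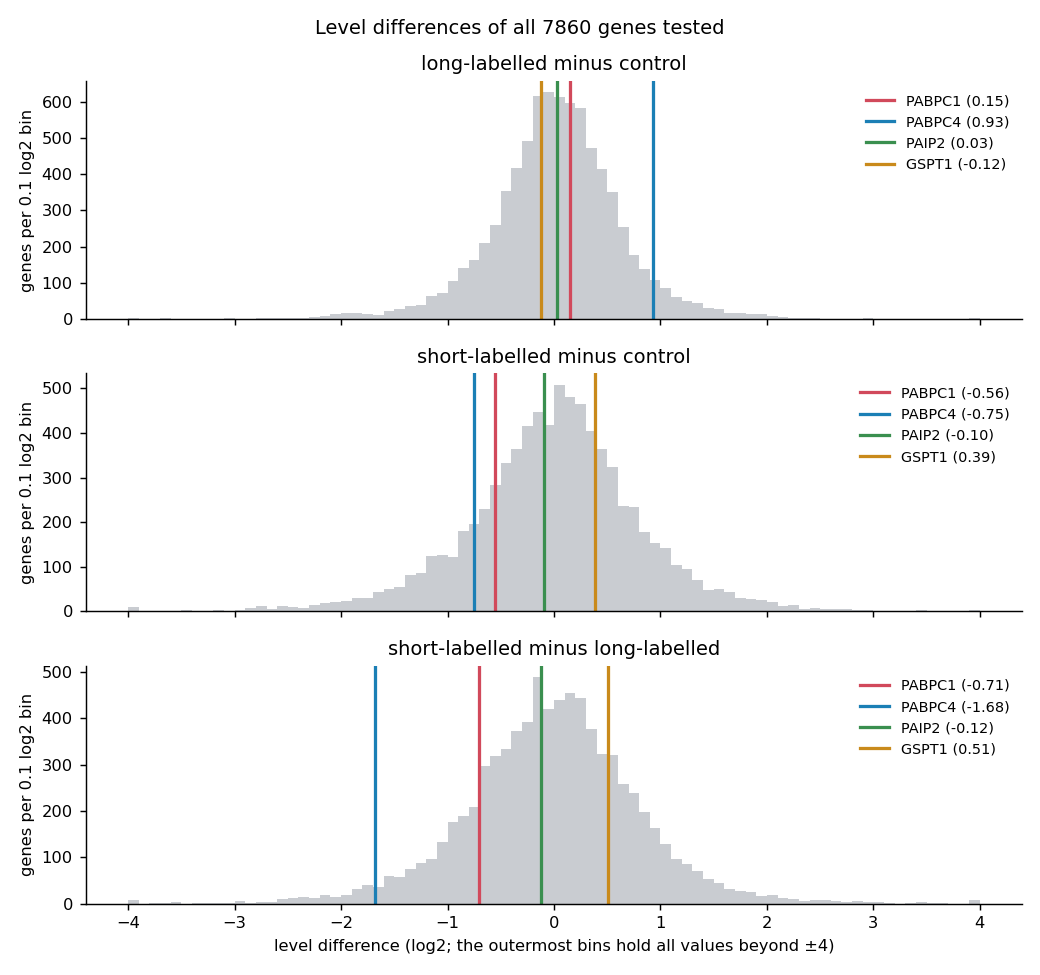
Number of genes per 0.1 log2 units (y axis) at each level difference (x axis) for all 7860 genes tested, in 3 comparisons, with vertical lines at the 4 genes of the limma fit. PAIP2 lies near 0 in each panel, and PABPC4 lies at 0.93, -0.75 and -1.68 from top to bottom.

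Genes that act beside these proteins were read from lists chosen with earlier results of the data known. Of 7 further poly(A)-binding protein genes, PABPC3 alone passed the filter, and it was lower in the short-labelled than in the control series (-0.63 ± 0.09 log2 units, limma adjusted p = 4.9e-06). Of 14 other genes whose products bind the MLLE domain, 8 were tested, and 0 were higher and 2 lower in the short-labelled than in the control series, 2 of 8 where 63.5% of all genes were called, with a median difference of 0.09 against 0.03 for all genes. Those were the deadenylation adaptor TOB1, with means of 13.4 FPKM in the control against 4.68 in the short-labelled series, and the deubiquitinase USP10, with 16.7 and 9.27. The ubiquitin ligase MKRN1 was lower in the long-labelled series, at 18.9 FPKM against 36.3 in the control series and 35.7 among short-labelled libraries. For slopes, 1 of the 8 was higher and 1 lower in the short-labelled than in the control series, where 8.85% of all genes were called. The higher one was ATXN2L, a stress granule protein, with a slope difference of 0.21 ± 0.06 (limma adjusted p = 0.044).

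Of 20 genes for the cap-binding complex, initiation cofactors and termination partners, 15 were tested. In the short-labelled against the control series 6 were higher and 6 lower, in the long-labelled 9 and 2, and in the both-labelled 7 and 2, where 63.5%, 51.2% and 62.1% of all genes were called. The median differences were 0.16, 0.28 and 0.18 log2 units against 0.03 for all genes in each. EIF4EBP2, a repressor of the cap-binding protein, stood at 3.57 FPKM in the control and at 11.7, 10.3 and 13.5 in the long-, short- and both-labelled series (difference of the last, 1.97 ± 0.07, limma adjusted p = 1.2e-13). Its paralogue EIF4EBP1 followed the order of PABPC4, with means of 133 FPKM in the long-labelled, 94.5 in the control, 70.5 in the both-labelled and 50.9 in the short-labelled series. EIF4A2, a helicase subunit, was listed at 74.1 FPKM in the long-labelled, 134 in the control, 161 in the both-labelled and 168 in the short-labelled series. EIF4G2, a scaffold relative that lacks the poly(A)-binding protein site, averaged 342 FPKM in the control against 192 in the short-labelled series (-0.74 ± 0.04, adjusted p = 6.6e-11).

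PABPC1 mRNA is known as one of the mRNAs that begin with an oligopyrimidine tract and answer to growth signals. Of other such mRNAs outside the ribosomal proteins 11 were tested, and in the short-labelled against the control series 2 were higher and 5 lower, with a median difference of -0.23 log2 units against 0.03 for all genes. In the both-labelled series 2 were higher and 5 lower (median -0.17), and in the long-labelled series 1 was higher and 2 lower (median -0.08). The shares of all genes called were 63.5%, 62.1% and 51.2%, so 7 of 11 in the first and second was near the background. EEF2, the translocation factor, averaged 1343 FPKM in the control, 1151 in the long-labelled, 947 in the both-labelled and 764 in the short-labelled series. NPM1, a nucleolar chaperone, had means of 406 FPKM in the long-labelled, 263 in the control, 225 in the both-labelled and 181 in the short-labelled series. GNB2L1, a ribosome-bound scaffold, stood at 722 FPKM in the control against 530 in the short-labelled series. EIF3H, an initiation factor subunit, went the other way, with 137 FPKM in the long-labelled, 177 in the control series and 218 among short-labelled libraries.

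Of 23 genes for nuclear polyadenylation and partners of PABPN1, 20 were tested. In the short-labelled against the control series 8 were higher and 3 lower (median difference 0.28, against 0.03 for all genes), in the both-labelled 7 and 2 (median 0.35) and in the long-labelled 6 and 2 (median 0.17). These were 11, 9 and 8 of 20 genes, where 63.5%, 62.1% and 51.2% of all genes were called. CSTF3, a subunit of the cleavage stimulation factor, averaged 24.6 FPKM in the control and 46.6, 37.3 and 44.7 in the long-, short- and both-labelled series. CPSF4, which takes part in reading the polyadenylation signal, averaged 16.2, 23.4, 17.1 and 21.9 FPKM in the same order from the control on. The cleavage factor NUDT21 was lower in each labelled series, at 34.3 FPKM in the control and 22.1, 23.4 and 24.1 in the others. So was the poly(A) polymerase PAPOLA, at 45.6 FPKM in the control and 27.5, 34.1 and 34.9.

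The patterns most like those of the genes in the limma fit were found by Pearson's r of centred log2 values over the 24 libraries, which share series and times, as a description. For PABPC1 they were C14orf153 (r = 0.93), MAP2K1 (0.92) and SRM (0.91). For PABPC4 they were DBN1, MOBKL1B and PTDSS1 (0.92 each), and for PAIP2 BRK1 (0.95), NDUFS5 and C1orf151 (0.94 each). GSPT1 had the weakest likenesses, with CALCOCO2 (0.77), C15orf38 and IGSF3 (0.72 each). SRM averaged 121 FPKM in the long-labelled, 94.4 in the control, 71.0 in the both-labelled and 47.5 in the short-labelled series, and PTDSS1 followed the same order at 88.3, 58.8, 46.2 and 33.0 FPKM. Among the genes themselves r was 0.70 for PABPC1 with PABPC4, 0.55 for PABPC1 with PAIP2 and -0.51 for PABPC4 with GSPT1.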

How the data were processed

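Cytoplasmic RNA of U2OS cells was sequenced in 24 libraries, 6 in each of 4 siRNA series. The authors deposited a table of FPKM values with 1 row per RefSeq transcript. The submitters' processing notes name TopHat 1.3.3 and the build hg19. No source used here names the tool behind the FPKM values or its handling of shared reads, and depth is unknown. Rows were summed per gene. Of 9898 genes averaging 1 FPKM or more, 464 were dropped for a dash and 1574 for a 0 beside a neighbouring time of 1 FPKM or more (a failed zero). That rule for zeros was made after values had been seen. Values were log2(FPKM + 0.1), centred on the median of the 7860 tested genes per library, so fold changes understate those of low genes. limma 3.58.1 (R 4.3.3, with trend) fitted level (time as a factor plus series), slope difference (adding series by hours) and slope (a line per series), with Benjamini-Hochberg adjusted p under 0.05 called over all genes. The all-member fit, chosen after seeing the data, took genes of at least 0.01 FPKM with a pseudocount of 0.01 and failed zeros missing. The level and slope-difference fits were tested on simulated data with known changes in the short-labelled series. That simulation drew independent scatter for each library, so it did not test offsets shared by the genes of a library or by a series. It did not cover the rule for zeros, the filter of the all-member fit or the sign-flip test. Named genes were the 8 members, the 3 most alike of each tested member, up to 4 called genes of each list, and PAN3. PAN2, BCL2L2-PABPN1 and the transcript rows were chosen with their values in view. Members and lists were chosen with earlier results of these data known. The alternatives are under the closing section.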

Additional observations from a re-analysis of the deposited data

Results flagged for a closer look

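For each gene and series the lowest and the highest of the 6 libraries were set against the range of their series by Dixon's criterion, in 32 groups, of which chance flags about 1 in 20. It marked 5 groups, each by a low library. PABPC1 was low in the control library of 0 h (119.9 FPKM, 0.781 of the range below the next) and in the short-labelled library of 4 h (86.0 FPKM, 0.741). PABPC4 was low in the control library of 1 h (37.6 FPKM, 0.768) and in the short-labelled library of 6 h (18.4 FPKM, 0.680). PABPN1 was low in the long-labelled library of 4 h (7.86 FPKM, 0.709), where BCL2L2-PABPN1 was listed at 0. The marked libraries differ from gene to gene. The PABPC1 differences of the short-labelled and both-labelled series from the control and the called PABPN1 differences from the long-labelled series are given above without them. Without the control library of 1 h the PABPC4 differences from the control were 0.79 (long-labelled) and -0.89 (short-labelled), and with 6 h of the short-labelled series left out those of that series were -0.59 from the control and -1.53 from the long-labelled series, all 4 with adjusted p of 0.001 or less by limma. Without that library the PABPC4 difference between the both-labelled and short-labelled series was 0.35 (adjusted p = 0.093). The cause of the low values was not tested.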

How the results depend on the processing

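Depth is unknown and each series has 1 library per time point, so precision rests on the scatter within series, pooled over the series. The labels carry no replicate numbers, and libraries were paired by time through the time factor. A straight line was also put in its place, drawn per series for slope differences and shared by the series for levels. The counts of calls were then the same in each comparison of both kinds except 3 in place of 2 for short-labelled against control levels. All level differences called in the limma fit kept their sign under every alternative run. Of 25 called values, 8 lost the call when a time or a library was left out and 11 under another alternative, and 1 changed sign. For control slopes 3 of 4 genes were called, against 1 with values not centred, 0 after quantile normalisation and 1 with only the 6 control libraries. Slope differences of the short-labelled series reached 1 call against the control with the lead transcript or 0 to 4 h only, and 1 against the long-labelled series with the lead transcript. For both-labelled against control levels, 1 gene was called with PABPC1 and PABPC3 summed, with values not centred and after quantile normalisation. For both-labelled against short-labelled levels, 1 was called with no filter on the mean, with zeros kept and with 0 to 4 h only. Of the genes outside the main filter, 2 were called in the long-labelled against control levels after quantile normalisation and with no trend. With their zeros kept, 1 was called in the short-labelled and 1 in the both-labelled against control levels, and the PABPN1 difference in the first turned to 0.86. With only the 12 libraries compared, 1 was called in the both-labelled against long-labelled levels. The cause of these changes was not tested.

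Leaving out each time and each library in turn gave ranges of calls. For the 4 genes of the limma fit these were 2 to 3 for the control slope, 0 to 1 for the slope difference of the short-labelled from the control and from the long-labelled series, and 0 to 0 for the other 4 slope pairs. For levels they were 1 to 2 for long-labelled, 2 to 3 for short-labelled and 0 to 1 for both-labelled against control. They were 2 to 4 for short-labelled and 2 to 4 for both-labelled against long-labelled, and 1 to 2 for both-labelled against short-labelled. For the 4 other genes they were 1 to 2, 2 to 2 and 2 to 3 against control in the same order, 2 to 3 and 1 to 3 against long-labelled, and 0 to 0 for both-labelled against short-labelled.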
